A study of Mus musculus with 8 samples.

Results

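Expression of 9 genes that mark the trophectoderm, the outer cell layer of the blastocyst, was followed by total RNA sequencing in mouse embryonic stem cells. The genes were taken as a named list: Tead4, Tfap2c, Gata2, Gata3, Cdx2, Elf5, Hand1, Krt8 and Krt18. All 9 had a row among the 17723 genes used, and none had more than 1 row. The cells were E14TG2a, a line of strain 129/Ola, cultured on gelatin without feeder cells in serum medium with leukaemia inhibitory factor (LIF), the GSK3 inhibitor CHIR99021 and the MEK inhibitor PD0325901, at passages 3 to 6. Unedited cells (WT) were set against 3 edited lines (E1-KO, E2-KO, E3-KO) that were made with CRISPR/Cas9 and lack 1 enhancer each, with 2 biological replicates in each of the 4 groups. All groups shared the medium, and the labels give neither the enhancers' positions nor the number of clones per line. The study's stated interest was how pairings of promoters and enhancers bear on the roles of Sox2, a pluripotency factor. No edited line with all enhancers intact was analysed here, so editing, clone and library batch cannot be told apart from the loss of an enhancer.

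The trophectoderm is the first epithelium of the embryo and gives rise to the placenta. In outer cells, where HIPPO signalling is off, the coactivator YAP enters the nucleus and works with the DNA-binding protein TEAD4 to switch on Cdx2 and Gata3. TFAP2C, GATA2 and ELF5 belong to the network that maintains trophoblast stem cells, HAND1 drives the giant cells that form from them, and keratins 8 and 18 pair into the filaments of this simple epithelium. Embryonic stem cells derive from the inner cell mass, where SOX2 and OCT4 (Pou5f1) oppose this programme.

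Levels are given in FPKM, a count of fragments per transcript length and library size, so that levels of different genes can be set side by side. The absolute depth is not known. Steps between low values put the depth of the other libraries at 0.785 to 1.01 times that of WT replicate 1. Between 11074 and 11261 genes per library reached 1 FPKM. The 10 markers of pluripotent stem cells were all above 1 FPKM in every library, with summed levels between 1926 and 2395 FPKM, so markers of the labelled cell type were present. The level of Sox2 itself was 133.4 ± 4.05 FPKM (SD, n = 2, as for the next values) in WT and 59.1 ± 1.58 in E1-KO. It was 105.5 ± 11.3 in E2-KO, and in E3-KO 94.3 ± 4.79. These are bulk samples, in which fewer cells of a type and less RNA per cell cannot be told apart.

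The 9 genes fell into 3 bands of level in WT. Tfap2c (33.7 ± 1.78 FPKM) and Tead4 (29.0 ± 3.31 FPKM) stood at percentiles 84.7 and 82.4 of all genes by WT mean. The middle band held Krt18 (9.82 ± 0.491), Krt8 (7.29 ± 0.812), Gata2 (3.63 ± 0.230) and Gata3 (1.52 ± 0.0598 FPKM; SD, n = 2 each). Cdx2 (0.0959 FPKM), Hand1 (0.0617 FPKM) and Elf5 (0.0520 FPKM) were close to 0 in WT, at percentiles 19.2, 16.1 and 15.2. Genes were tested where their mean over all samples reached 1 FPKM, which held for 6 of the 9 and not for Cdx2, Elf5 and Hand1. Fold changes compare log2(FPKM + 1), a scale on which changes of low genes look smaller than they are, and SE is their standard error. The p-values, from limma-trend, were adjusted by Benjamini and Hochberg's method over the 11268 genes tested, and a gene was called at an adjusted p under 0.05.

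**Figure D1:**
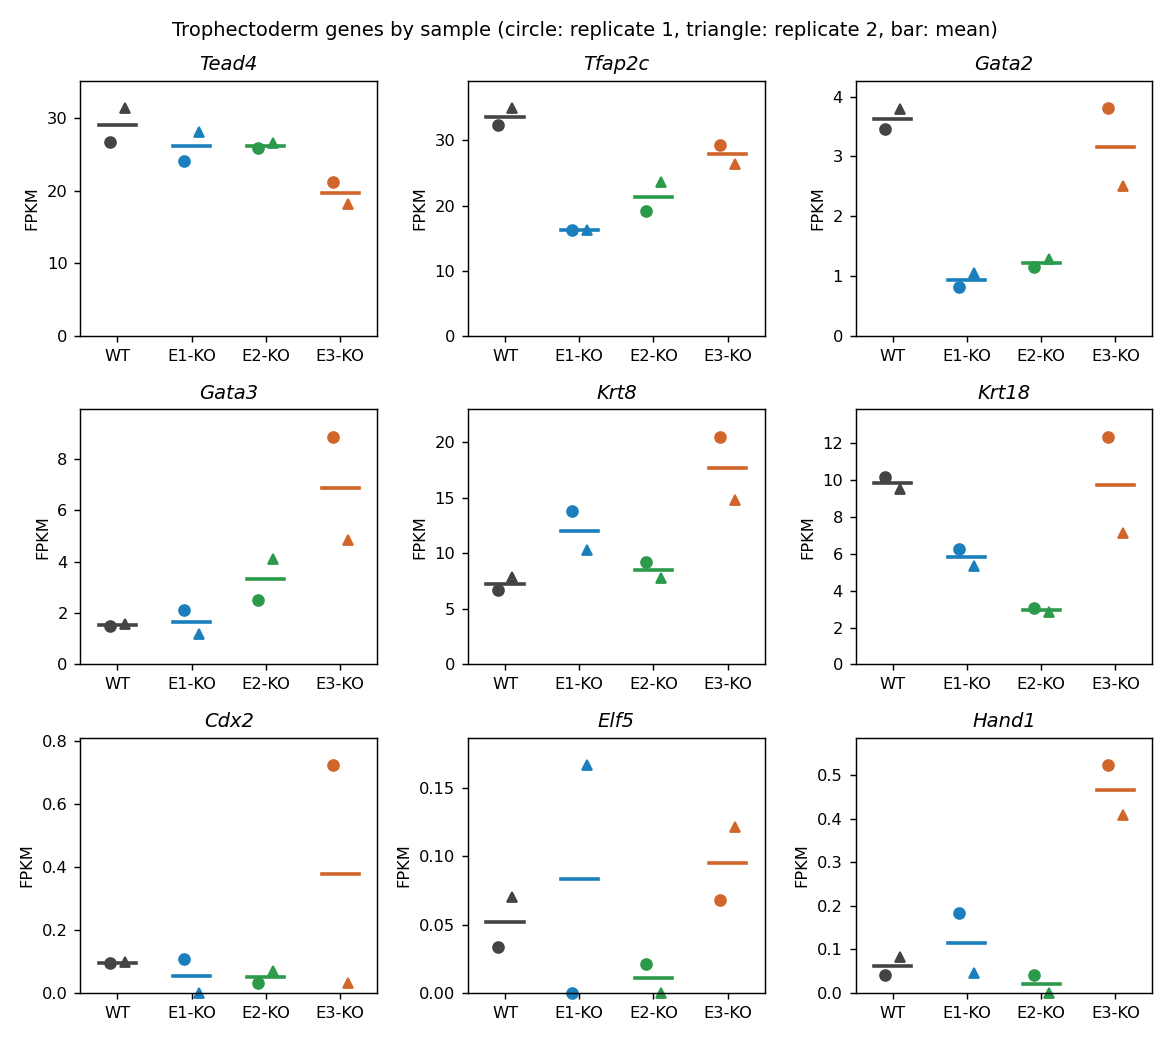
FPKM (vertical axes, each from 0) of the 9 trophectoderm genes in the 4 groups, with a circle for replicate 1, a triangle for replicate 2 and a bar for the group mean. Gata2 and Krt18 are lowest in E1-KO and E2-KO, Gata3, Krt8 and Hand1 are highest in E3-KO, and Cdx2 and Elf5 reach at most 0.723 and 0.167 FPKM.

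In E1-KO, 4 of the 6 tested trophectoderm genes were called against WT, where 38% of all tested genes were. Gata2, Tfap2c and Krt18 were lower (23% of all tested genes were called lower) and Krt8 was higher (15%). E2-KO had 3 calls, Gata2, Tfap2c and Krt18, each lower than WT, against 36.1% of all tested genes called and 22% called lower. In E3-KO, 3 were called, against 44.7% of all tested genes. Gata3 and Krt8 were higher there (13.9% of all tested genes) and Tead4 was lower (30.8%). The 6 genes had median log2 fold changes of -0.41, -0.39 and -0.11 in the 3 lines in that order, beside -0.06, -0.08 and -0.15 for all tested genes. The 3 comparisons share the WT samples. With 6 genes a single call is a large step in the share, so these counts are a description, and the direction differed from gene to gene.

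**Figure D2:**
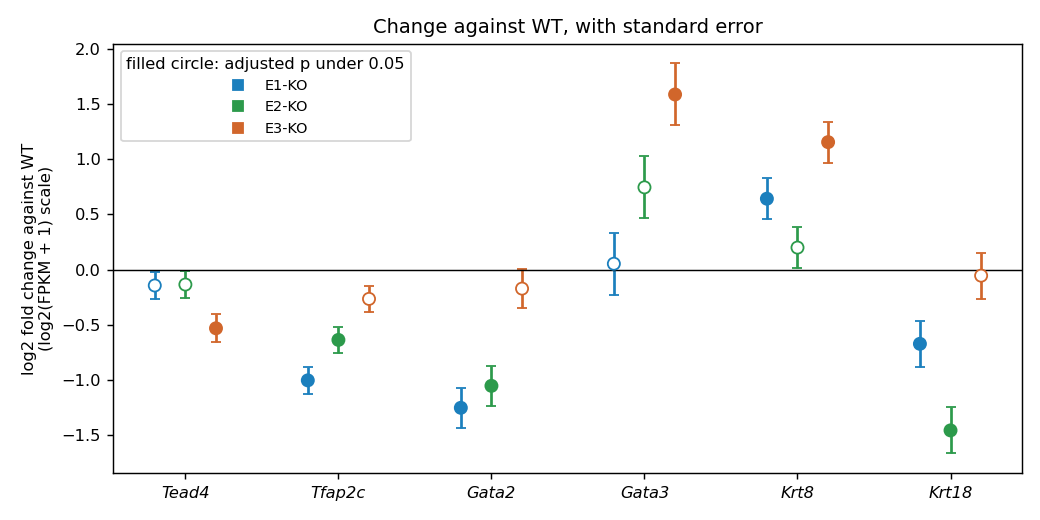
Log2 fold change against WT on the log2(FPKM + 1) scale (vertical axis) of the 6 tested trophectoderm genes in the 3 lines, with the standard error, and filled circles where the adjusted p is under 0.05. Gata2 and Tfap2c lie furthest below 0 in E1-KO, Krt18 in E2-KO, and Gata3 and Krt8 lie furthest above 0 in E3-KO.

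Tead4 (ENSMUSG00000030353, chromosome 6, minus strand) encodes the TEAD family member that acts at the top of the trophectoderm programme. It was at 26.7 and 31.3 FPKM in the WT samples, while E1-KO had 24.1 and 28.1, E2-KO had 25.9 and 26.6, and E3-KO had 21.2 and 18.2. Both E3-KO samples were below the other 6, and the E1-KO range overlapped those of WT and E2-KO, while both E2-KO samples lay below both WT samples. Tead4 fell in E3-KO (-0.53 on the log2 scale, SE 0.13, adjusted p by limma-trend = 0.00853). The log2 fold changes were -0.14 in E1-KO (adjusted p by limma-trend = 0.392) and -0.14 in E2-KO (adjusted p by limma-trend = 0.425). Chromosome 6 as a whole was lower in E3-KO. Over its 536 tested genes the median log2 difference from the WT mean, relative to the other chromosomes, was -0.47 and -0.50 in the E3-KO samples and between -0.01 and 0.02 in the other 6. The median log2 fold change of chromosome 6 in E3-KO was -0.62, below that of Tead4. With chromosome 6 centred on the other chromosomes, an alternative chosen after the data had been seen, the change of Tead4 in E3-KO was -0.04 (adjusted p by limma-trend = 0.795). Leaving out WT replicate 2 also ended the call (-0.42, adjusted p by limma-trend = 0.0818).

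**Figure D3:**
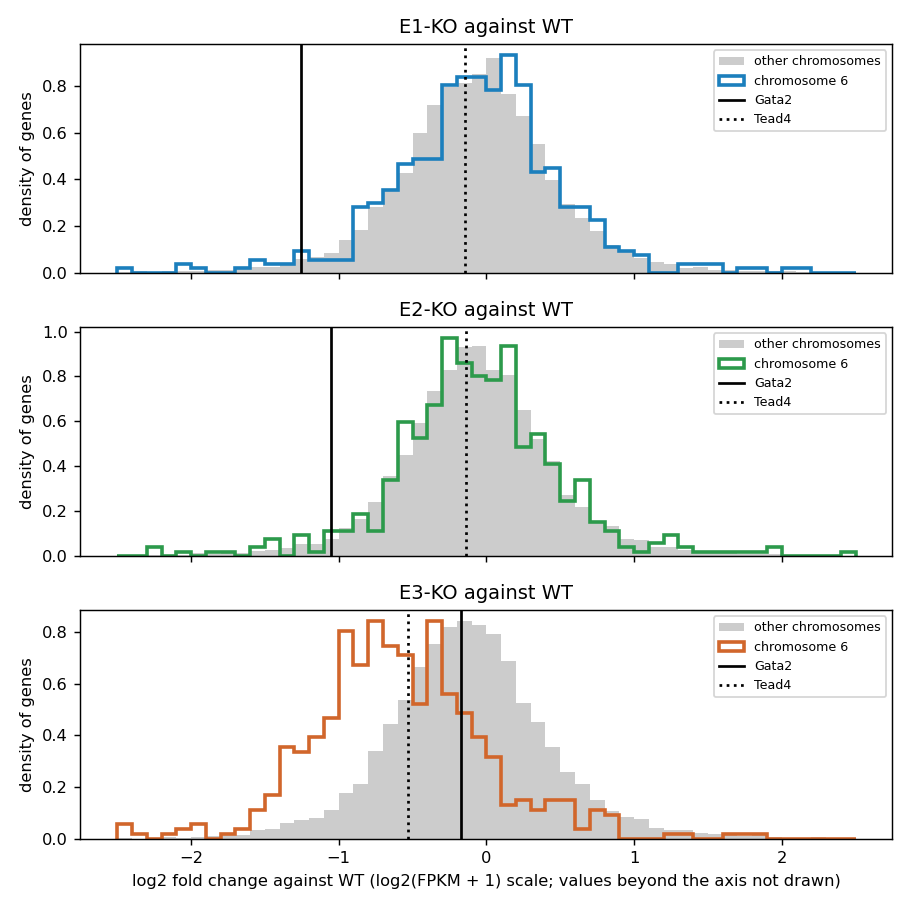
Density of genes (vertical axes) by log2 fold change against WT (horizontal axis) for tested genes of chromosome 6 (coloured line) and of the other chromosomes (grey), for each knockout, with the positions of Gata2 (solid line) and Tead4 (dotted line). The chromosome 6 genes are shifted to lower values in E3-KO, where their median is -0.62, and Gata2 lies to the right of that median.

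Tfap2c (ENSMUSG00000028640, chromosome 2, plus strand) encodes the AP-2 gamma transcription factor, which trophectoderm, germ cells and naive stem cells all use. Its levels were 32.4 and 34.9 FPKM in WT, while E1-KO had 16.2 and 16.3, E2-KO had 19.2 and 23.6, and E3-KO had 29.3 and 26.4. The groups did not overlap and stood in the order WT, E3-KO, E2-KO, E1-KO. Tfap2c fell in E1-KO (-1.01, SE 0.12, adjusted p by limma-trend = 0.000511) and in E2-KO (-0.64, adjusted p by limma-trend = 0.00418). In E3-KO the log2 fold change was -0.27 (adjusted p by limma-trend = 0.100). Neighbours in that order did not pass a direct test, with 0.37 between E3-KO and E2-KO (adjusted p by limma-trend = 0.0679) and 0.37 between E2-KO and E1-KO (adjusted p by limma-trend = 0.163). Between E3-KO and E1-KO the difference was 0.74 (adjusted p by limma-trend = 0.00277). Both falls against WT passed under all 15 alternatives run for each.

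Gata2 (ENSMUSG00000015053, chromosome 6, plus strand) and Gata3 (ENSMUSG00000015619, chromosome 2, minus strand) encode zinc finger proteins of 1 family that act together in trophoblast. Against WT, Gata2 was called lower in E1-KO and E2-KO, and Gata3 was called higher in E3-KO. Over the 8 samples they had a Pearson r of 0.277 on the log2(FPKM + 1) scale. RefSeq promoter windows of GRCm38.p6 (250 bases before to 50 after a start) are shown for both genes so that the sequence at their starts can be compared. Capitals mark matches, on either strand, to letters known from 4 families of factors. TEAD factors are represented by GGAATG. For AP-2 factors the letters searched were GCCNNNGGC. The GATA family is represented by AGATAA. For SOX factors the letters were ACAATG. Matches of these 4 motifs do not overlap in the windows shown. Gata3 has 1 window (chr2:9878551-9878850, minus strand), and Gata2 has 2, at its upstream start (chr6:88193641-88193940, plus strand) and its downstream start (chr6:88198414-88198713, plus strand).
Gata3: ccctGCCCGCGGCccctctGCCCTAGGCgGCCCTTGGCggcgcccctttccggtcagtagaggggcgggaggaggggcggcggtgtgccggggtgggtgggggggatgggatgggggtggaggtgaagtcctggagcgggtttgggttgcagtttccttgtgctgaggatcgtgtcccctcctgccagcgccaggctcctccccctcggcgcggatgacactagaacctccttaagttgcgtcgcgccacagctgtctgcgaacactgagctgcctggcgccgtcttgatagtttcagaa
Gata2, upstream start: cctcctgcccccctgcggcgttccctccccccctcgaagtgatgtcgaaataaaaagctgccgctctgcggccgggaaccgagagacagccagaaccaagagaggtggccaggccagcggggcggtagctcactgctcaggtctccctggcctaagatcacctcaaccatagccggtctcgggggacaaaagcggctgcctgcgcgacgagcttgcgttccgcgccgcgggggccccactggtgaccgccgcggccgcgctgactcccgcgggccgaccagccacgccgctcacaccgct
Gata2, downstream start: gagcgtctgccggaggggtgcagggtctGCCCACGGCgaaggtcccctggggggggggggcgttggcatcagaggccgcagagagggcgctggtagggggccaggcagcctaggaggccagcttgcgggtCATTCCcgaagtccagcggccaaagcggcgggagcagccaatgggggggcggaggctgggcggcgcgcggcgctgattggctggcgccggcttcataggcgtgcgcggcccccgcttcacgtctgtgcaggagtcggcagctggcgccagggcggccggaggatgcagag
The Gata3 window held 3 matches to the AP-2 letters, which 16.6% of the 32851 windows of this length hold at least once. The upstream Gata2 window held no match to any of the 4, and the downstream one held 1 to AP-2 and 1 to TEAD (14.7% of all windows). GC content was 67.3% for Gata3 and 69.3% and 73.7% for Gata2, beside a median of 52.7% over all windows. The deposited values are sums per gene, so they do not tell which Gata2 start was used.

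Gata2 was at 3.46 and 3.79 FPKM in WT, while E1-KO had 0.822 and 1.06, E2-KO had 1.16 and 1.29, and E3-KO had 3.80 and 2.50. All 4 samples of E1-KO and E2-KO were below all 4 of WT and E3-KO, and the WT samples lay within the range of E3-KO. The log2 fold change was -1.25 in E1-KO (SE 0.18, adjusted p by limma-trend = 0.00109) and -1.06 in E2-KO (SE 0.18, adjusted p by limma-trend = 0.0027). In E3-KO it was -0.17 (adjusted p by limma-trend = 0.459), on a chromosome whose median was -0.62, and it was 0.32 after centring chromosome 6 (adjusted p by limma-trend = 0.169). Tested directly, E3-KO was above E1-KO by 1.08 (adjusted p by limma-trend = 0.00302) and above E2-KO by 0.88 (adjusted p by limma-trend = 0.0131). The latter did not pass without E2-KO replicate 1 (0.84, adjusted p by limma-trend = 0.0592). E2-KO and E1-KO differed by 0.20 (adjusted p by limma-trend = 0.591).

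Gata3 had 1.48 and 1.56 FPKM in WT, while E1-KO had 2.12 and 1.19, E2-KO had 2.49 and 4.12, and E3-KO had 8.86 and 4.84. The E3-KO samples were above all others, both E2-KO samples were above WT and E1-KO, and the E1-KO samples lay on either side of WT. Gata3 rose in E3-KO (1.59 on the log2 scale, SE 0.28, adjusted p by limma-trend = 0.00226). The 2 E3-KO samples had a mean of 6.85 FPKM with an SD of 2.84, and without 1 or the other the log2 fold change was 1.21 or 1.97. In E2-KO the log2 fold change was 0.75 (adjusted p by limma-trend = 0.0660), which passed in the samples of this pair alone (adjusted p by limma-trend = 0.0321) and after quantile normalization (0.0464). E1-KO gave 0.05 (adjusted p by limma-trend = 0.896). E3-KO was also above E1-KO by 1.54 (adjusted p by limma-trend = 0.0048), and its excess over E2-KO, 0.84, did not pass (adjusted p by limma-trend = 0.0746). The ratio of Gata3 to Gata2 in FPKM was 0.427 and 0.413 in the WT samples and between 1.13 and 3.19 in the 6 knockout samples. This ratio was not tested. The annotation places an antisense RNA, Gm13256, and a coding gene on the opposite strand, 4930412O13Rik (0 to 0.0844 FPKM), over Gata3. A coding gene on the same strand, 9230102O04Rik, also overlaps Gata3 and had no row of its own. Whether the counting used strand, and how shared reads were counted, is not given in the sources used here.

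Cdx2 (ENSMUSG00000029646, chromosome 5, minus strand), the homeobox factor that fixes trophectoderm fate and represses Pou5f1, was close to 0. Its values were 0.0942 and 0.0976 FPKM in WT, while E1-KO had 0.107 and 0, E2-KO had 0.0317 and 0.0695, and E3-KO had 0.723 and 0.0312. Among the 8 samples E3-KO replicate 1 alone stood above 0.107 FPKM, and E3-KO replicate 2 was below WT. Its paralog Cdx1 was at 17.3 ± 0.969 FPKM in WT (SD, n = 2) and fell in E2-KO (-1.49, adjusted p by limma-trend = 0.00065) and E3-KO (-1.93, adjusted p by limma-trend = 0.000131), so the CDX transcripts of these cells were mainly those of Cdx1. Elf5 (ENSMUSG00000027186, chromosome 2, plus strand), an ETS factor of trophoblast stem cells that is silenced by DNA methylation in embryonic stem cells, lay between 0 and 0.167 FPKM. It was listed at 0 in E1-KO replicate 1 and E2-KO replicate 2, and both E2-KO samples were below all WT and E3-KO samples, while the other groups overlapped.

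Hand1 (ENSMUSG00000037335, chromosome 11, minus strand), a basic helix-loop-helix factor of trophoblast giant cells, was at 0.0402 and 0.0831 FPKM in WT, while E1-KO had 0.183 and 0.0467, E2-KO had 0.0406 and 0, and E3-KO had 0.523 and 0.410. Both E3-KO samples were above the other 6. Hand1 was below the filter, and when all 17723 genes were tested without one it passed in E3-KO, with 0.47 on the log2(FPKM + 1) scale (SE 0.07, adjusted p by limma-trend = 0.00556), where 29.1% of all genes were called. In that same test Cdx2 (0.28, adjusted p by limma-trend = 0.368) and Elf5 (0.06, adjusted p by limma-trend = 0.612) did not pass in E3-KO, and for the 3 low genes the adjusted p by limma-trend lay between 0.569 and 0.903 in the other lines, where 22.7% (E1-KO) and 21.1% (E2-KO) of all genes were called. A level under 1 FPKM in every sample remains low beside the other genes described here.

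Krt8 (ENSMUSG00000049382, chromosome 15, minus strand) and Krt18 (ENSMUSG00000023043, chromosome 15, plus strand) encode a type II and a type I keratin. Keratin filaments form only from a type I and a type II keratin together. They are neighbours on chromosome 15. Their RefSeq windows, shown because these partners did not change alike, lie at chr15:102004293-102004592 on the minus strand and chr15:102027966-102028265 on the plus strand of GRCm38.p6. Capitals mark the same 4 sets of letters as above.
Krt8: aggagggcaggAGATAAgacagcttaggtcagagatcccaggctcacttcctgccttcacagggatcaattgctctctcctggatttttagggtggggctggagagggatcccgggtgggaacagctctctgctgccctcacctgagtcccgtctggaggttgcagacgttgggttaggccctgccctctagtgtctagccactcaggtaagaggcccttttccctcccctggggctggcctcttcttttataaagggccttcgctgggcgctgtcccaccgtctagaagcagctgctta
Krt18: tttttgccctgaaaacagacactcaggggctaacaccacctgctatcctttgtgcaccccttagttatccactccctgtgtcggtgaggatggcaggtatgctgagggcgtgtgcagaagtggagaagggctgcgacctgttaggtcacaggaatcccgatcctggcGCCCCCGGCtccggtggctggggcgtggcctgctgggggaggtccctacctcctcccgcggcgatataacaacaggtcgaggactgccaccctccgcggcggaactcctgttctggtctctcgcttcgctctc
The Krt8 window held 1 match to the GATA letters, present in 11.2% of all windows, and the Krt18 window held 1 to the AP-2 letters. Neither held the TEAD or the SOX letters (14.7% and 12.6% of all windows). GC content was 58.0% for Krt8 and 61.3% for Krt18, with 6 and 17 CpG dinucleotides.

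Krt8 was at 6.71 and 7.86 FPKM in WT, while E1-KO had 13.8 and 10.3, E2-KO had 9.27 and 7.78, and E3-KO had 20.5 and 14.8. The E3-KO samples were above all others, the E1-KO samples came next, and WT and E2-KO overlapped. Krt8 rose in E3-KO by 1.16 on the log2 scale (SE 0.19, adjusted p by limma-trend = 0.00148), and this passed under all 15 alternatives. In E1-KO it rose by 0.64 (SE 0.19, adjusted p by limma-trend = 0.0250). That call was lost when all genes above 0 were tested (adjusted p by limma-trend = 0.0615) and without WT replicate 1, WT replicate 2 or E1-KO replicate 1 (0.137, 0.0661 and 0.176). The E2-KO value was 0.20 (adjusted p by limma-trend = 0.430). E3-KO was above E2-KO by 0.96 (adjusted p by limma-trend = 0.0112) and above E1-KO by 0.51, which did not pass (adjusted p by limma-trend = 0.0733).

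Krt18 showed another pattern, with 10.2 and 9.48 FPKM in WT, while E1-KO had 6.26 and 5.34, E2-KO had 3.05 and 2.82, and E3-KO had 12.3 and 7.14. The E2-KO samples were the lowest, the E1-KO samples lay between them and WT, and the E3-KO samples lay on either side of WT. Krt18 fell by 1.46 on the log2 scale in E2-KO (SE 0.21, adjusted p by limma-trend = 0.00121), which passed under all 15 alternatives. The fall in E1-KO was 0.67 (log2 fold change -0.67, adjusted p by limma-trend = 0.0319). It passed in 9 of 15 alternatives and was lost on leaving out any of the 4 samples of this comparison (adjusted p by limma-trend 0.0791 to 0.154). In E3-KO the log2 fold change was -0.06 (adjusted p by limma-trend = 0.848), and its sign was positive after quantile normalization (0.17) and median-ratio scaling (0.10). E3-KO was above E2-KO by 1.40 (adjusted p by limma-trend = 0.00358), and E2-KO was below E1-KO by 0.79 without passing (log2 fold change -0.79, adjusted p by limma-trend = 0.105).

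The ratio of Krt8 to Krt18 in FPKM was below 1 in both WT samples (0.660 and 0.830) and above 1 in all 6 knockout samples, where E1-KO had 2.2 and 1.93, E2-KO had 3.04 and 2.76, and E3-KO had 1.66 and 2.08. Against WT, Krt18 was lower in E2-KO, Krt8 was higher in E3-KO, and both were called in E1-KO. The ratio itself was not tested. GENCODE lists a processed pseudogene of Krt8, Krt8-ps, and a long noncoding RNA, Gm36026, on the opposite strand over Krt8, neither of which had a row of its own. How reads shared with such sequences were counted is not given in the sources used here, so the level of Krt8 carries that uncertainty.

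**Figure D4:**
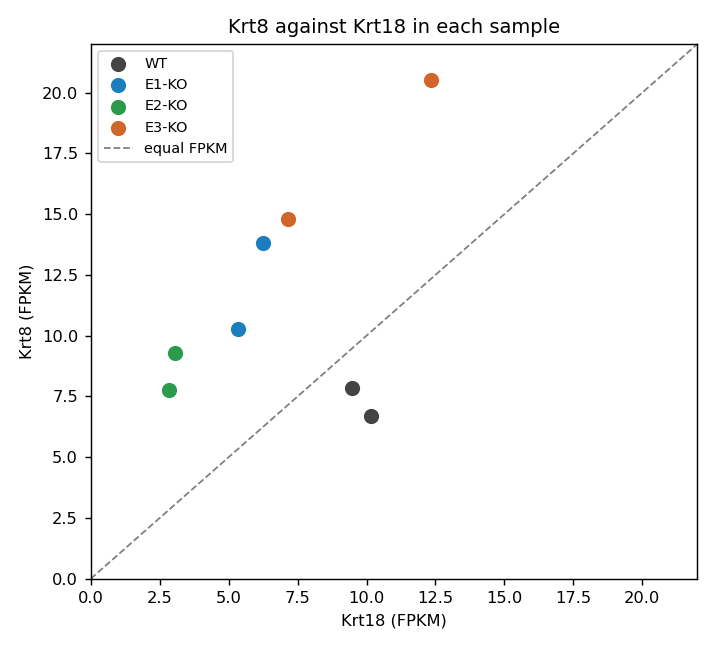
Krt8 (vertical axis) against Krt18 (horizontal axis) in FPKM, with a point for each of the 8 samples coloured by group and a dashed line where the values are equal. The WT samples lie below the line and the 6 knockout samples above it.

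Between knockouts, E3-KO differed from E1-KO in 4 of the 6, with Gata2, Gata3 and Tfap2c higher and Tead4 lower, where 25.8% of all tested genes were called (9.41% higher, 16.4% lower). The Tead4 call (-0.39, adjusted p by limma-trend = 0.0499) passed in 1 of 15 alternatives and was 0.11 after centring chromosome 6. From E2-KO it differed in 3, Gata2, Krt8 and Krt18, all higher, where 15.6% of all tested genes were called (5.48% higher). Between E2-KO and E1-KO limma-trend called 0 of the 6 after adjustment, where 0.834% of all tested genes were called. At an unadjusted limma-trend p under 0.05 there were 4. The share of all tested genes at that unadjusted threshold was not computed, so nothing is read from this count. In E3-KO, replicate 1 was above replicate 2 for 8 of the 9 genes, against 57.4% of all tested genes. In WT it was the other way, with replicate 1 above replicate 2 for 1 of the 9 and for 38.6% of all tested genes. The 9 include Cdx2, Elf5 and Hand1, which were below the filter, while the shares cover tested genes only.

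For Gata3, Krt18 and Gata2, the 3 tested genes whose group means ranged most widely (1.59, 1.46 and 1.25 on the log2 scale), the genes of most similar pattern over the 8 samples were sought among 11267 others, as a description with no test. Gata3 was most like Cryab (Pearson r = 0.977), a small heat shock protein, Carhsp1 (0.976) and Megf11 (0.967). Cryab had 3.94 and 4.44 FPKM in WT and 25.3 and 13.0 in E3-KO. Krt18 was most like Peg10 (0.983), an imprinted gene needed in the placenta, Nmrk1 (0.963) and 4930518I15Rik (0.962). Peg10 had 40.3 and 41.5 FPKM in WT, while E2-KO had 23.4 and 21.8 and E3-KO had 48.0 and 38.1. Like Gata2 it lies on chromosome 6, and the r values were computed without centring that chromosome. Gata2 was most like Anxa8 (0.996), an annexin, Pdp2 (0.993) and Gpr137b (0.990), and 80 genes had an r above 0.95 with it. Anxa8 had 5.30 and 6.48 FPKM in WT, while E1-KO had 0.525 and 0.580, E2-KO had 0.932 and 0.869, and E3-KO had 6.82 and 3.21. Among the members, Gata2 and Tfap2c were the most similar (r = 0.948), and Krt8 and Krt18 had an r of 0.343.

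Other regulators of trophectoderm and trophoblast stem cells gave 17 tested genes of 20 listed. Their counts and those of the next lists are to be read against the shares of all tested genes called, which were 15% higher and 23% lower (E1-KO), 14.2% and 22% (E2-KO), and 13.9% and 30.8% (E3-KO), with medians of -0.06, -0.08 and -0.15. In E1-KO 3 of them were higher and 2 lower, in E2-KO 1 was higher and 4 lower, and in E3-KO 5 were higher and 2 lower. Their median log2 fold changes were -0.17, -0.20 and 0.03, and the E1-KO and E2-KO counts are near the shares of all genes. Ascl2, a factor of the placental spongiotrophoblast, had 0.504 and 0.663 FPKM in WT and 3.60 and 1.92 in E3-KO, where it rose by 1.21 (adjusted p by limma-trend = 0.00692). Id2, an inhibitor of helix-loop-helix factors, rose in E3-KO from 2.58 ± 0.242 to 6.29 ± 0.898 FPKM (SD, n = 2 each; log2 fold change 1.02, adjusted p by limma-trend = 0.00112). Plet1, a surface protein of trophoblast progenitors, fell in E2-KO (-1.01, adjusted p by limma-trend = 0.0452). Of the family of Tfap2c, Tfap2a shared its direction, and fell in E1-KO (-0.73, adjusted p by limma-trend = 0.00471) and E2-KO (-0.70, adjusted p by limma-trend = 0.00625), with 0.04 in E3-KO (adjusted p by limma-trend = 0.836). Gata6, a relative of Gata2 and Gata3, had group means of 1.09 (WT), 0.347 (E1-KO), 0.495 (E2-KO) and 2.74 FPKM (E3-KO). Msx2, of the same list, had 0.351 (WT), 1.26 (E1-KO), 1.27 (E2-KO) and 1.69 FPKM (E3-KO). Both reached the 1 FPKM needed for a test only through E3-KO, and both are among the 5 higher in that line. Msx2 is also among the 3 higher in E1-KO and is the 1 higher in E2-KO. Nothing is read from the calls of these genes or from the count of higher genes in E3-KO. Elf3, an epithelial relative of Elf5, rose in E3-KO by 0.57 (adjusted p by limma-trend = 0.00568).

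The HIPPO, YAP and TEAD pathway, which acts through TEAD4, gave 19 tested genes of 21. In E1-KO 3 were higher and 6 lower, in E2-KO 5 were called and each was lower, and in E3-KO 3 were higher and 3 lower, with medians of -0.21, -0.10 and -0.03. Nothing particular to this list is read from these counts. Tead1, a family member called lower, had 51.3 ± 0.818 FPKM in WT, 35.3 ± 2.39 in E1-KO and 37.3 ± 1.24 in E2-KO (SD, n = 2 each) and fell in both (-0.53 and -0.45, adjusted p by limma-trend 0.00362 and 0.00805). Yap1 fell in the same lines, by 0.48 in E1-KO (adjusted p by limma-trend = 0.0206) and by 0.41 in E2-KO (adjusted p by limma-trend = 0.0385). Wwtr1, also of this list, was not called in either (-0.21 and -0.14, adjusted p by limma-trend 0.191 and 0.359). The 3 genes called higher in E1-KO were Tead2 (0.42), Nf2 (0.35) and Vgll4 (0.46). Amotl1, a junction protein that holds YAP in the cytoplasm, fell in all 3 lines (-0.81, -0.90 and -0.68). Ccn2, a target gene of YAP and TEAD proteins, had 7.68 and 6.70 FPKM in WT, while E1-KO had 3.58 and 2.99, E2-KO had 6.87 and 5.71, and E3-KO had 20.2 and 18.0. It fell in E1-KO (-0.93, adjusted p by limma-trend = 0.00149) and rose in E3-KO (1.30, adjusted p by limma-trend = 0.000232). Mob1a, an activator of the LATS kinases that lies on chromosome 6, fell in all 3 lines (-0.44, -0.36 and -1.15, adjusted p by limma-trend 0.00871, 0.0220 and 9.2e-05), and in E3-KO the median of that chromosome was -0.62.

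Genes of the trophectoderm epithelium had 8 of 17 tested genes lower and 3 higher in E1-KO, 10 lower and 2 higher in E2-KO, and 9 lower and 2 higher in E3-KO. Their medians were -0.33, -0.51 and -0.53, against the shares and medians of all tested genes given above. Dsp, the desmosomal protein desmoplakin, fell in all 3 lines. It was at 21.2 ± 2.67 FPKM in WT (SD, n = 2 for each value), where E1-KO had 4.44 ± 0.774, E2-KO had 4.73 ± 0.226 and E3-KO had 9.12 ± 0.0249, with log2 fold changes of -2.03, -1.95 and -1.13 (adjusted p by limma-trend 6.18e-05, 7.59e-05 and 0.000452). Cldn4, a claudin of tight junctions, fell in all 3 (-1.36, -1.19 and -0.69). Krt19, another type I keratin, fell in E2-KO like Krt18, from 10.7 and 10.8 FPKM to 1.08 and 2.55 (-2.11, adjusted p by limma-trend = 0.000592), and was at 10.3 and 7.15 in E1-KO and 10.6 and 7.96 in E3-KO. Krt42 had a pattern of its own, with a fall in E3-KO (-1.79, adjusted p by limma-trend = 0.000137) and -0.04 and -0.18 in the other lines (adjusted p by limma-trend 0.875 and 0.431).

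Of 16 genes of differentiated trophoblast, 10 had a row and 4 were tested, with 1 higher and 1 lower in E1-KO, 1 lower in E2-KO, and 1 higher and 2 lower in E3-KO. Gcm1, Syna, Synb and Ctsq, which mark syncytial or sinusoidal trophoblast, had highest values of 0.497, 0.227, 1.15 and 0.0676 FPKM, with Ctsq listed at 0 in 7 of 8. Phlda2, an imprinted growth regulator of the placenta, rose in E1-KO (1.16, adjusted p by limma-trend = 0.000919) and E3-KO (0.93, adjusted p by limma-trend = 0.00188). Peg10 fell in E1-KO (-0.38, adjusted p by limma-trend = 0.0343) and E2-KO (-0.83, adjusted p by limma-trend = 0.00122). In E3-KO its log2 fold change was 0.06 (adjusted p by limma-trend = 0.691), on chromosome 6, whose median was -0.62. The homeobox genes Rhox6 and Rhox9 of the X chromosome fell in E3-KO (-0.94 each, adjusted p by limma-trend 0.00686 and 0.0120).

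Markers of other cell types moved as follows, and their part in the changes of Gata2, Gata3, Krt8 and Krt18 was not tested. The summed level of 8 primitive endoderm genes was 31.8 and 33.1 FPKM in WT, while E1-KO had 6.28 and 6.37, E2-KO had 15.0 and 13.1, and E3-KO had 15.7 and 13.8. Most of it came from Lama1 (28.8 ± 0.899 FPKM in WT, SD, n = 2), which fell in all 3 lines. Hnf4a fell in E1-KO (-0.84) and E2-KO (-0.61), and the defining marker Gata6 was at 1.04 and 1.15 FPKM in WT and 3.72 and 1.76 in E3-KO. The defining markers Sox17, Sox7, Pdgfra and Foxa2 had highest values of 0.641, 0.0949, 0.308 and 0.113 FPKM, with Foxa2 listed at 0 in 4 samples. For 9 mesoderm genes the sum lay between 7.49 and 12.6 FPKM. In WT most of it came from Eomes (4.07 and 4.60 FPKM), which trophoblast shares. Snai1 rose in all 3 lines (0.92, 0.87 and 1.95). T (Brachyury), the defining marker, was untested at 1.70 and 2.09 FPKM in WT and between 0.0363 and 0.348 in the 6 knockout samples. The sum of 10 epidermal and simple epithelial genes was 55.8 and 54.0 FPKM in WT. In the knockouts it lay between 30.7 and 46.6 FPKM, lowest in the E2-KO samples. Krt5 and Krt14 were at 0.129 FPKM or less throughout. Krt7 and Krt19 of this list were also in that of the trophectoderm epithelium. From WT to E2-KO the group mean of Krt19 went from 10.7 to 1.81 FPKM. That of Epcam went from 15.2 to 7.44 FPKM, and that of Grhl3 from 24.0 to 22.1 FPKM. The sum of 10 fibroblast genes was 3.71 to 6.50 FPKM. Among them Thy1 rose in all 3 lines, from 0.768 FPKM in WT to 2.61, 1.53 and 2.69 (1.03, 0.51 and 1.06 on the log2 scale). Pdgfrb lay between 1.11 and 2.14 FPKM with no call and its highest group mean in WT. Fbn1, untested, had group means of 0.388 (WT), 1.00 (E1-KO), 0.947 (E2-KO) and 0.510 FPKM (E3-KO). Those of Col1a1 were 0.450, 0.822, 0.983 and 0.663 FPKM in that order. Col1a1, Col1a2, Postn and Dcn were below 1 FPKM in every sample.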

How the data were processed

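Total RNA of 8 samples was depleted of ribosomal RNA and sequenced from both ends, per the labels' protocols. For each sample the authors deposited a list that pairs gene identifiers with values. The values were taken as FPKM, since the submitters' processing notes name Cufflinks 2.2.1, along with Trimmomatic 0.36, TopHat2 2.0.12 and genome build mm9, and the values are not whole numbers. No header states the unit, and the annotation, strand setting and scaling are not given in the sources used here.

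Every list held 18774 rows of 17812 identifiers. Of the 660 identifiers with several rows, each was kept as the row that fits its gene's position in the row order, and 89 were left out, giving 17723 genes. Symbols came from a gene name table (17262 identifiers matched). Chromosomes came from GENCODE M21 and promoters from RefSeq (GRCm38.p6, 6 of 9 genes matched, 8 windows). No coordinate in these sources is in mm9.

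Genes whose mean reached 1 FPKM were tested on log2(FPKM + 1) with limma-trend (limma 3.58.1, R 4.3.3), all 8 samples in 1 fit with 4 residual degrees of freedom, two-sided. The fit was tested on simulated data. Whether replicates came from separate clones is not stated, so p-values measure the spread between these samples. The members, lists and tests were chosen with earlier results of these data known. All 9 genes are described. From each other list, up to 4 called genes with the largest change in any knockout were eligible to be named. Genes outside this rule, such as Yap1, Wwtr1, Msx2 and the low or marker genes, were chosen after their values were seen. They represent a pathway or cell type, or show values that limit a count. Alternatives tried were a replicate block, each pair of groups alone, quantile and median-ratio scaling, scaling without the 50 highest genes, limma without trend, other filters (none, and 5 FPKM), a pseudocount of 0.1, summed rows, leaving out each replicate and centring chromosome 6. Figures used matplotlib 3.10.9.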

Additional observations from a re-analysis of the deposited data

How the results depend on the processing

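The numbers of trophectoderm genes called kept within 1.5 times of 4, 3, 3, 0, 4 and 3 (E1-KO, E2-KO and E3-KO against WT, then E2-KO against E1-KO, E3-KO against E1-KO and E3-KO against E2-KO) except as follows. In E1-KO against WT 2 were called with all genes above 0 and 2 to 3 with a replicate left out, 2 without WT replicate 1, WT replicate 2 or E1-KO replicate 1. E3-KO against E1-KO gave 1 at a mean of at least 5 FPKM, where 4 of the genes could be tested, and E3-KO against E2-KO gave 5 after quantile normalization. Leaving out a replicate leaves a group with 1 sample, assumed to vary like the others. Signs turned for changes that were not called, namely Gata3 in E1-KO (-0.20 to 0.31 with a replicate left out), Gata2 in E3-KO (-0.40 to 0.055, and 0.32 with chromosome 6 centred), Krt18 in E3-KO (-0.41 to 0.30, 0.17 by quantile normalization and 0.10 by median-ratio scaling) and Tead4 in E2-KO against E1-KO (-0.10 to 0.12, and -0.029 scaled without the 50 highest genes). With chromosome 6 centred, Tead4 turned to 0.11 in E3-KO against E1-KO, which had been called, and to 0.092 in E3-KO against E2-KO. Apart from the construction of these alternatives, the cause was not tested. Samples with the same replicate number did not deviate together (correlation of deviations -0.04 to 0.09 over 6 pairs of groups, mean 0.01). With the replicate number as a block 4, 3, 3, 0, 4 and 3 genes were called. In E3-KO against E1-KO Tead4 was then lost (adjusted p by limma-trend = 0.0654) and Krt18 gained (0.0388). Absolute depth is not known, and values of Cdx2, Elf5 and Hand1 near 0 are listed without an interval.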

Other observations

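Paralogs of the 9 genes gave 10 tested genes of 18 listed, with 1 higher and 2 lower for E1-KO, 4 called for E2-KO, each lower, and 2 higher and 1 lower for E3-KO. Of all tested genes 38%, 36.1% and 44.7% were called in these lines. Most of these paralogs were counted above, Cdx1, Gata6 and Tfap2a among the other regulators and Tead1 and Tead2 in the HIPPO list. The calls not counted before are Elf2 in E2-KO and Elf3 in E3-KO. Gata6, 1 of those higher in E3-KO, reached the level for a test only through that group. Several were at or near 0, since Gata5 and Tfap2b had highest values of 0.0232 and 0.0128 FPKM and Cdx4 reached 0.292 FPKM, in E3-KO replicate 2. Tead2, the TEAD gene with the highest level here, had group means of 67.1 (WT), 90.1 (E1-KO), 72.9 (E2-KO) and 56.1 FPKM (E3-KO), and rose in E1-KO (0.42, adjusted p by limma-trend = 0.0396), where Tead1 fell.

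The 10 pluripotency genes gave 2 higher and 4 lower for E1-KO, 3 higher and 2 lower for E2-KO, and 4 called for E3-KO, each lower. Of all tested genes 15% were called higher and 23% lower (E1-KO), 14.2% and 22% (E2-KO), and 13.9% and 30.8% (E3-KO). Eomes, which mesoderm and trophoblast share, lay between 2.92 and 7.01 FPKM and did not pass in any line (adjusted p by limma-trend 0.135, 0.466 and 0.536).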
